A study of Mus musculus with 7 samples.

Results

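The solute carrier transporters are the membrane proteins whose genes carry Slc family symbols. They were followed here in macrophages of the mouse lung's air sacs (alveolar macrophages) after deletion of the ubiquitin ligase genes Siah1a and Siah2. The 134 members are the protein-coding rows whose symbol starts with a carrier number (Slc, a family number, a and a member number) and whose mean over the 7 libraries was at least 2 TPM. TPM is a length-scaled share of a library in which all rows sum to 1000000. It keeps no record of sequencing depth, which is unknown here, and counting intervals cannot be given. Of 47643 rows in the table, 340 protein-coding rows had such a symbol and 147 reached 2 TPM, of which 13 were left out by name. Those 13 were Slc7a11, Slc3a2, Slc11a1, Slc11a2, Slc40a1, Slc39a1, Slc39a2, Slc39a7, Slc30a1, Slc30a5, Slc30a7, Slc2a1 and Slc16a3. The members were thus selected on their mean TPM over all 7 libraries, and levels are given as a description. The symbol pattern also took in 4 genes that are not carriers themselves but were named after one (Slc4a1ap, Slc7a6os, Slc9a3r1 and Slc9a3r2). Just inside the level limit stood Slc38a9 (2.07 TPM), Slc39a8 (2.14), Slc44a1 (2.3), Slc22a4 (2.40) and Slc25a53 (2.53). Just outside it stood Slc25a43 (1.88 TPM), Slc20a2 (1.86), Slc4a11 (1.68), Slc25a35 (1.51) and Slc18a2 (1.49).

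Poly(A) RNA came from lung cells that carried CD11c, F4/80 and SiglecF on their surface. Lyz2cre (3 libraries) carried floxed Siah1a and Siah2 with Cre expressed from the Lyz2 locus, which is active in macrophages and neutrophils. CD11ccre (1 library) carried those floxed alleles too, with a CD11c-driven Cre. The CD11c promoter is also active in dendritic cells. The 3 WT libraries were labelled wild type, and the labels do not say whether they carry a Cre or a floxed allele. The labels give no age, treatment or number of animals and do not state that replicates were separate animals, and p-values cover no more than the spread between the libraries, which may be technical.

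Solute carriers move amino acids, sugars, ions, metals, vitamins and nucleotides across the plasma membrane and the membranes of organelles. Families differ in their place in the cell: the Slc25 carriers sit mainly in the inner mitochondrial membrane, Slc35 carriers bring nucleotide sugars into the Golgi and the endoplasmic reticulum, and several Slc15, Slc36, Slc38 and Slc48 proteins serve the lysosome. Alveolar macrophages take up surfactant, debris and dying cells, whose breakdown products leave the lysosome through such carriers.

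The libraries were checked before the members were compared. Siah1a was listed at 0 to 0.05 TPM in the Lyz2cre libraries and at 0 in CD11ccre, against 6.72 to 16.59 TPM in WT. Siah2 ran from 1.45 to 1.95 TPM in Lyz2cre and was 1.21 TPM in CD11ccre, against 12.69 to 17.33 TPM in WT. Lyz2 was 46.62 to 61.89 TPM in Lyz2cre, 50676 TPM in CD11ccre and 72.56 to 86.25 TPM in WT. The libraries labelled WT thus had Lyz2 near the level of the line that carries Cre in that gene, which goes against a plain wild-type label, and whether these mice carried the Cre allele was not tested. They are called WT here by their label. All 11 alveolar macrophage markers were present in each library, and Siglecf, a marker of the sort, was 65.48 to 106.62 TPM in Lyz2cre, 53.87 in CD11ccre and 210.72 to 256.50 in WT. Itgax, which encodes the CD11c of the sort, lay the other way. It was 421.09 to 433.59 TPM in Lyz2cre and 541.27 in CD11ccre, against 326.60 to 386.85 in WT. Marco, Fabp4, Car4, Chil3 and Cd68 also stood higher in every Siah-deleted library than in any WT library. Mrc1, like Siglecf, stood lower in every Siah-deleted library. It was 495 to 591.01 TPM in Lyz2cre and 491.83 in CD11ccre, against 603.24 to 710.35 in WT. Adgre1, which encodes another surface marker of the sort, was 94.39 to 110.97 TPM in Lyz2cre and 93.33 in CD11ccre. Its WT range of 102.8 to 146.01 TPM overlapped that of Lyz2cre. The Siah-deleted and WT ranges also overlapped for Mertk and Pparg. The summed level of the 5 neutrophil markers ran from 94.86 to 135.40 TPM in Lyz2cre, was 100.37 in CD11ccre and ran from 27.57 to 67.99 in WT, while the defining Ly6g was at 0 in all 7 libraries. The neutrophil markers did not move together: S100a8 was 80.88 to 126.83 TPM in Lyz2cre and 92.10 in CD11ccre, against 15.60 to 32.86 in WT, and S100a9 was 1.16 to 6.90 TPM in Lyz2cre and 1.62 in CD11ccre, against 10.67 to 37.91 in WT. The sum of the 2 monocyte markers ran from 0.58 to 0.91 TPM in Lyz2cre, was 0.60 in CD11ccre and ran from 2.98 to 8.81 in WT, with Ly6c2 at 0 in all 4 Siah-deleted libraries. The 5 airway markers summed to 90.41 to 270.98 TPM in Lyz2cre, 204.33 in CD11ccre and 111.96 to 209.22 in WT, and Foxj1 and Muc5b were low among them. The 7 alveolar type 2 cell markers summed to 46.09 to 64.79 TPM in Lyz2cre and 47.91 in CD11ccre, against 30.85 to 45.22 in WT, so that this sum did not overlap. The part of these other cells in the results below was not tested. Ftl1, Fth1, Chil3 and Lyz2 together took 14.4% to 16.3% of the TPM in Lyz2cre, 19.1% in CD11ccre and 4.91% to 5.30% in WT, which lowers the share left for every other gene.

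The members together took 0.384% to 0.405% of the TPM in Lyz2cre, 0.357% in CD11ccre and 0.391% to 0.418% in WT. The range of the Lyz2cre libraries overlapped that of WT. Levels were uneven: 7 members averaged at least 100 TPM over all libraries, 73 averaged 10 to 100 TPM and 54 less than 10 TPM, with a median of 13.0 TPM. Ucp2, a transporter gene outside the symbol pattern, stood above every member. It was 1676.5 to 2052.1 TPM in Lyz2cre, 1486.5 in CD11ccre and 1900.8 to 2286.8 in WT. The most abundant members were Slc25a5, the adenine nucleotide carrier that exchanges ATP for ADP, and Slc25a3, the mitochondrial phosphate carrier. These 2 genes alone held 22.6% to 24.6% of the members' TPM in Lyz2cre, 27.0% in CD11ccre and 21.5% to 23.6% in WT. After them came Slc15a3, a lysosomal carrier of histidine and short peptides, at 312 ± 63.1 TPM in Lyz2cre, 246 TPM in CD11ccre and 278 ± 37.0 TPM in WT (SD, n = 3 for Lyz2cre and WT). Slc29a1, an equilibrative nucleoside transporter, averaged 137 ± 10.9 TPM in Lyz2cre, was 145 TPM in CD11ccre and averaged 152 ± 16.5 TPM in WT (SD, n = 3 each for Lyz2cre and WT). Slc6a6, the taurine transporter, averaged 162 ± 3.29 TPM in Lyz2cre, was 115 TPM in CD11ccre and averaged 118 ± 30.4 TPM in WT (SD, n = 3 each for Lyz2cre and WT). Slc9a4, a sodium and proton exchanger, averaged 110 ± 26.6 TPM in Lyz2cre, was 98.2 TPM in CD11ccre and averaged 135 ± 4.86 TPM in WT (SD, n = 3 each for Lyz2cre and WT). Over all 7 libraries the values of Slc25a5 and Slc25a3 overlapped, as did those of Slc29a1, Slc6a6 and Slc9a4, while Slc15a3, at 239.93 to 362.74 TPM, was above the last 3 and reached into the range of Slc25a3. For the 4 genes from Slc15a3 to Slc9a4 the difference of Lyz2cre from WT did not pass the test described below (adjusted p = 0.638, 0.505, 0.153 and 0.341). Without WT replicate 3, in which Slc6a6 stood highest among the WT libraries, its adjusted p was 0.0281.

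**Figure D1:**
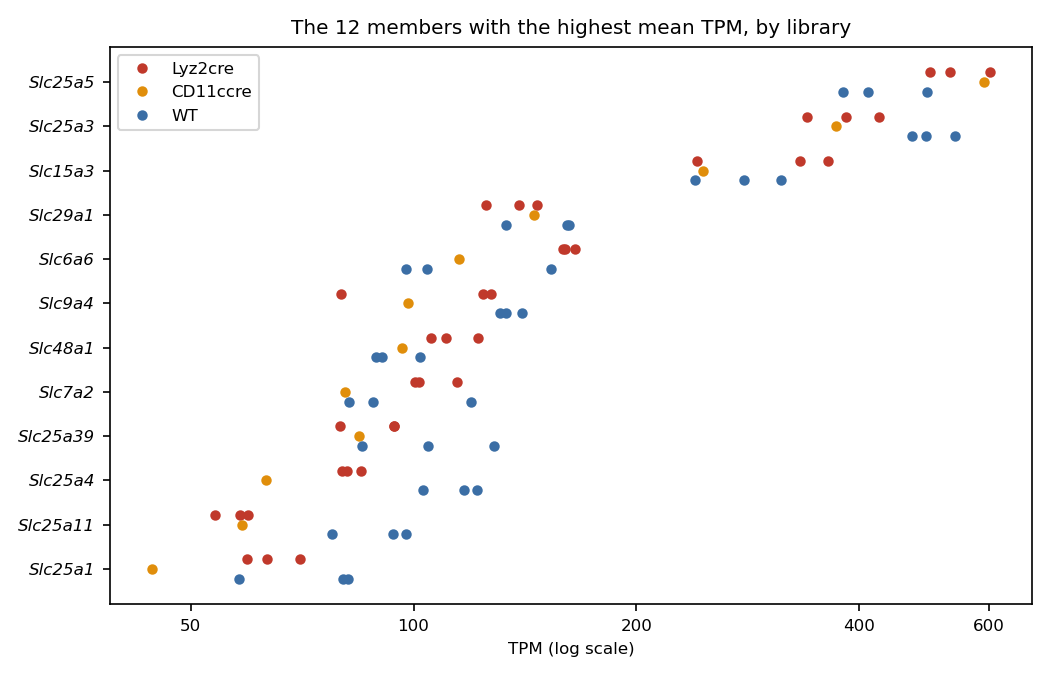
TPM on a log axis of the 12 members with the highest mean, with 1 point per library for Lyz2cre, CD11ccre and WT. Slc25a5 and Slc25a3 stand at 340.59 TPM or more in every library, and for most of the other genes the Lyz2cre and WT points overlap or lie close.

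Each comparison used limma's moderated test on log2(TPM + 1) across 11397 genes with a mean of at least 1 TPM, with Benjamini-Hochberg adjusted p-values over all of them and a threshold of 0.05. A log2 fold change on this scale understates the change of low genes, while N-fold values are plain ratios of mean TPM. In bulk RNA, fewer cells of a type and less RNA per cell cannot be told apart. In Lyz2cre against WT, 6 of the 134 members were called higher and 5 lower, and the other genes of the set did not pass. Over all genes tested, 2.17% were called higher and 4.60% lower (6.76% in all), against 4.48% and 3.73% of the members (8.21% in all). All genes tested took in any biotype from 1 TPM, whereas members were protein-coding from 2 TPM. Shares moved with the floor: with a mean of at least 5 TPM, 2.91% of all genes tested were higher and 7.14% lower. At that floor 6 members were called higher and 6 lower. This limit holds wherever members or a class are set beside all genes tested. The members' shares are not free of the rule: Slc6a8 and Slc22a4, both called higher, reached its limit of 2 TPM only through the Siah-deleted libraries. Genes just outside the limit lay both ways: Slc4a11 and Slc18a2 were lower in the Siah-deleted libraries and Slc20a2 was higher. The median log2 fold change was -0.16 over all genes tested and -0.01 over the members. The log2 fold change was above 0 for 48.5% of the members, against 32.9% of all genes tested. The 3 Lyz2cre libraries lay wholly above the 3 WT libraries for 25 members (18.7%, against 7.45% of all genes tested) and wholly below them for 26 (19.4%, against 23.3%). With median-of-ratios scaling, which brings the median of all genes to 0.00, 8 members were higher and 1 lower, where 2.97% of all genes tested were called higher and 1.85% lower. Without the CD11ccre library in the fit 6 members rose and 5 fell.

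The creatine transporter Slc6a8 had the largest rise on the log2(TPM + 1) scale. Slc6a8 (chromosome X, 73673150 to 73682502, plus strand, mm10) brings creatine into the cell together with sodium and chloride. It stood at 11.13, 12.58 and 17.86 TPM in Lyz2cre and at 10.02 TPM in CD11ccre, against 0.85, 1.39 and 1.02 TPM in WT. All 4 Siah-deleted libraries were far above all 3 WT libraries. The Lyz2cre mean of 13.9 ± 3.54 TPM was 12.8-fold the WT mean of 1.09 ± 0.276 TPM (SD, n = 3 each), with a log2 fold change of 2.81 ± 0.24 (SE, adjusted p = 0.00228 in limma). The call held under each of 15 alternative settings, with adjusted p between 0.000286 and 0.0268, and the log2 fold change was 3.55 with a pseudocount of 0.1 and 1.62 with a pseudocount of 5. In CD11ccre the ratio to WT was 9.22 and the log2 fold change 2.41 (limma adjusted p = 0.0195), which was 0.0557 without WT replicate 1.

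Slc22a4 (chromosome 11, 53983123 to 54028090, minus strand) encodes a transporter of ergothioneine, a dietary antioxidant, and of organic cations. Its level was 4.43, 4.66 and 3.43 TPM in Lyz2cre libraries and 3.53 TPM in CD11ccre, against 0.12, 0.37 and 0.29 TPM in WT. The groups did not overlap, and the Lyz2cre mean was 16.1-fold that of WT, where every library was below 1 TPM. The log2 fold change in Lyz2cre was 2.03 ± 0.28 (SE, adjusted p = 0.00951 in limma), 3.63 with a pseudocount of 0.1 and 0.80 with a pseudocount of 5, and the call ended without Lyz2cre replicate 2 (0.0542). Slc6a8 and Slc22a4 averaged under 2 TPM in WT, so their place among the members rests on the Siah-deleted libraries. The related carnitine transporter Slc22a5, of the same family, averaged 6.23 ± 0.563 TPM in Lyz2cre and 7.09 ± 1.40 TPM in WT (SD, n = 3 each; limma adjusted p = 0.701) and was 7.99 TPM in CD11ccre.

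Among the 14 members that carry metals and haem, 3 rose, 0 fell and 11 were not called, with a median log2 fold change of 0.14. Of all genes tested 2.17% were called higher and 4.60% lower. The class is not complete, since metal carriers of the Slc11, Slc30, Slc39 and Slc40 families were among the genes left out by name. All Slc25 members stand in the mitochondrial class by their family number, whatever they carry. The sugar, carboxylate and amino acid classes are not complete either, since Slc2a1, Slc16a3 and Slc7a11 were left out by name. Slc39a12 (chromosome 2, 14388316 to 14494977, plus strand), a zinc importer of the ZIP family, stood at 12.23, 13.28 and 15.65 TPM in Lyz2cre libraries and 11.76 TPM in CD11ccre, against 3.32, 2.15 and 5.36 TPM in WT. Every Siah-deleted library exceeded the highest WT library by more than 2-fold. Its rise in Lyz2cre was 3.80-fold (log2 fold change 1.73 ± 0.28 SE, limma adjusted p = 0.0153). Slc39a11 (chromosome 11, 113244853 to 113650079, minus strand), another ZIP zinc transporter, stood at 22.49, 19.61 and 19.80 TPM in Lyz2cre libraries and 19.52 TPM in CD11ccre, against 14.24, 10.81 and 9.35 TPM in WT. Its rise was 1.80-fold (log2 fold change 0.81 ± 0.18 SE, limma adjusted p = 0.0440). Slc31a2 (chromosome 4, 62262562 to 62298411, plus strand), a copper carrier of late endosomes and lysosomes, stood at 62.09, 77.05 and 79.39 TPM in Lyz2cre libraries and 70.0 TPM in CD11ccre, against 47.73, 35.16 and 47.85 TPM in WT. The rise was 1.67-fold (log2 fold change 0.73 ± 0.17 SE, limma adjusted p = 0.0468). For Slc39a11 and Slc31a2 too, all Siah-deleted libraries were above all WT libraries. The plasma membrane copper importer Slc31a1 averaged 14.1 ± 1.42 TPM in Lyz2cre, was 13.3 TPM in CD11ccre and averaged 9.07 ± 0.978 TPM in WT (SD, n = 3 each for Lyz2cre and WT); it was not called (limma adjusted p = 0.0772) but was with median-of-ratios scaling (0.0489). Slc48a1, which exports haem from the phagolysosome, averaged 113 ± 8.53 TPM in Lyz2cre and 93.8 ± 7.06 TPM in WT (SD, n = 3 each; limma adjusted p = 0.208). Each of these 3 calls was lost when certain single libraries were left out. Under all settings the log2 fold change stayed above 0, at 1.13 to 1.99 for Slc39a12, 0.65 to 0.98 for Slc39a11 and 0.59 to 0.91 for Slc31a2. For Slc39a12 the call ended without WT replicate 1 (0.0524) and without replicate 2 (0.0583) or 3 (0.0718) of Lyz2cre. That of Slc39a11 ended without WT replicate 2 (0.114) or 3 (0.0822) and without Lyz2cre replicate 1 (0.131), 2 (0.107) or 3 (0.126). That of Slc31a2 ended without any 1 of the 6 libraries (WT replicates 1 to 3 gave 0.0856, 0.105 and 0.0673, Lyz2cre replicates 1 to 3 gave 0.0720, 0.131 and 0.153).

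Of the 12 carriers of nucleosides, vitamins and choline, 1 rose, 0 fell and 11 were not called (median log2 fold change 0.03). Beside this, 2.17% of all genes tested were called higher and 4.60% lower. The member that rose was Slc5a6 (chromosome 5, 31036036 to 31048924, minus strand), the sodium-dependent carrier of biotin, pantothenate and lipoate. It stood at 10.60, 7.69 and 7.47 TPM in Lyz2cre libraries and 7.12 TPM in CD11ccre, against 3.86, 3.92 and 4.22 TPM in WT. The WT libraries lay close together, and all Siah-deleted libraries were above them. The Lyz2cre mean was 2.15-fold that of WT (log2 fold change 0.92 ± 0.20 SE, limma adjusted p = 0.0404), and 0.59 with a pseudocount of 5. The call ended without any 1 of the 6 libraries (WT replicates 1 to 3 gave 0.103, 0.0982 and 0.0695, Lyz2cre replicates 1 to 3 gave 0.118, 0.0943 and 0.101). Slc43a3, a purine nucleobase transporter, stood at 9.24, 9.55 and 11.36 TPM in Lyz2cre libraries and 9.29 TPM in CD11ccre, against 2.49, 6.32 and 5.72 TPM in WT. Its libraries did not overlap either, but the difference did not pass the test (log2 fold change 0.99, limma adjusted p = 0.0989). The riboflavin carrier Slc52a3 stood at 17.24, 14.39 and 12.47 TPM in Lyz2cre libraries and 13.00 TPM in CD11ccre, against 22.79, 22.74 and 22.94 TPM in WT (log2 fold change -0.61, limma adjusted p = 0.0623). The Slc52a3 values of the Siah-deleted libraries were all below those of WT.

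Promoter sequences were examined for the members, as RefSeq gives them on GRCm38.p6, in windows of 300 bases that lie mostly upstream of a start site. A sequence was held for 102 of the 134 members, with none for Slc6a8. The hexamer CACGTG, a palindrome to which basic helix-loop-helix factors can bind, was singled out after the sequences were seen, because it stood in the promoters of 3 of the 5 members called higher that had a sequence. It stood in none of the 5 called lower. The sequences of these 3 are shown 5′ to 3′ on the strand of the gene, with the hexamer in capitals. That of Slc22a4 is chr11:54028055-54028354 (minus strand), that of Slc31a2 is chr4:62286179-62286478 (plus strand), and that of Slc39a11 is chr11:113565766-113566065 (minus strand). The last 2 windows lie inside the GENCODE span of their gene. A further Slc39a11 promoter, at the outer end of the gene, does not hold the hexamer.
Slc22a4: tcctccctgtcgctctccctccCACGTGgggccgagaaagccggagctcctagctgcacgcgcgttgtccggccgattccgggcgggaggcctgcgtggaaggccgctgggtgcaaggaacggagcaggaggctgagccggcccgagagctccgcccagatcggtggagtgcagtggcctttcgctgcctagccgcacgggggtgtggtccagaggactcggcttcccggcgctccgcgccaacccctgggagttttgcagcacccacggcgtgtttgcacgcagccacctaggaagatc
Slc31a2: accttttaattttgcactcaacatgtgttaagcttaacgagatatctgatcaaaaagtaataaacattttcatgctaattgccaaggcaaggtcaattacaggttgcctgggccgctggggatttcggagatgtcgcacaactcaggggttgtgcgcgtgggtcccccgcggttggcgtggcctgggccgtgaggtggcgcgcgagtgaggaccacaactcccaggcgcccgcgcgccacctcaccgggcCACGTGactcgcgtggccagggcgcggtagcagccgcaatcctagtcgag
Slc39a11: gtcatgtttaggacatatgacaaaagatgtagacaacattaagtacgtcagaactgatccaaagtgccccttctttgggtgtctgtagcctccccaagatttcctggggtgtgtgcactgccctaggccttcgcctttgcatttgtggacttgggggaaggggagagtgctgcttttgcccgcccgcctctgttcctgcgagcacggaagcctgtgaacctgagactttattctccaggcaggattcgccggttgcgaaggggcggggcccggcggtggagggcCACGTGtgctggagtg
CACGTG was present in 22 of 102 members with a promoter (21.6%) and in 9.17% of the 16044 symbols of protein-coding rows with one. For this and the other motifs a symbol counted if any of its promoters held the letters. The 102 members had 141 promoters and the 16044 symbols had 19604, so the chance of a match per symbol differed. Those symbols were taken at any level of expression, unlike the members. The member promoters had a median GC content of 61.3%, against 57.0%. Among the motifs listed earlier, searched on both strands, ACGTG (the core of the hypoxia response element, contained in CACGTG) stood in 34.3% of members and 23.6% of those symbols. TGACNNNGC, the antioxidant response element, stood in 24.5% and 15.1%, and of the called members only Slc31a2 held it. TGATGNAA, of the amino acid response, stood in 2.94% and 3.98%, among them Slc50a1 and Slc9a9. The CLEAR motif of lysosomal genes, which contains CACGTG, stood in 0 of the 102 members and in 0.505% of those symbols. A match describes letters in a window and is not a site shown to be bound.

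The 5 called falls spread over 5 role classes. Slc9a9 (chromosome 9, 94669909 to 95230445, plus strand), a sodium and proton exchanger of endosomes, had the largest fall among the called members. It stood at 4.26, 4.87 and 4.52 TPM in Lyz2cre libraries and 4.69 TPM in CD11ccre, against 10.91, 10.69 and 10.96 TPM in WT. Both sets of libraries were tight, and they did not overlap. The WT mean was 2.39-fold that of Lyz2cre (log2 fold change -1.10 ± 0.17 SE, limma adjusted p = 0.0127), and the call ended only without Lyz2cre replicate 3 (0.0575) among the single libraries left out. In the class of inorganic ions and pH it was the 1 member of 20 called, with 0 higher, 19 not called and a median of -0.10. Calls over all genes tested were 4.60% lower and 2.17% higher. Slc9a2, another exchanger of the family, stood at 4.67, 2.00 and 1.87 TPM in Lyz2cre libraries and 3.56 TPM in CD11ccre, against 8.03, 7.27 and 7.40 TPM in WT. Its log2 fold change of -1.23 did not pass (limma adjusted p = 0.0551), though it did without Lyz2cre replicate 1 (0.0298), the highest of the 3, and with a pseudocount of 5 (0.0498). For 7 of the 20 ion carriers the Lyz2cre libraries lay wholly below WT, and for 0 wholly above, beside 23.3% and 7.45% of all genes tested.

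Slc50a1 (chromosome 3, 89268246 to 89270570, minus strand), the only SWEET-type sugar carrier of mammals, stood at 19.40, 22.73 and 23.98 TPM in Lyz2cre libraries and 24.01 TPM in CD11ccre, against 58.42, 35.29 and 42.56 TPM in WT. The WT libraries were spread but all above the others. The WT mean was 2.06-fold that of Lyz2cre (log2 fold change -0.99 ± 0.20 SE, limma adjusted p = 0.0345). The call ended without WT replicate 1 (0.0714) or 3 (0.0695) and without Lyz2cre replicate 1 (0.107), 2 (0.0909) or 3 (0.0947). It was the 1 called member of the 10 carriers of sugars and polyols, beside 6.76% of all genes tested. The class median was 0.29, with 8 of 10 above 0, against 32.9% of all genes tested. Slc37a2, a sugar phosphate exchanger, stood at 11.39, 14.88 and 13.03 TPM in Lyz2cre libraries and 7.73 TPM in CD11ccre, against 6.48, 8.47 and 7.12 TPM in WT. The Lyz2cre libraries were the high ones and CD11ccre lay among the WT values. Its log2 fold change of 0.75 did not pass (limma adjusted p = 0.0525) but did with median-of-ratios scaling (0.0386).

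Slc16a10 (chromosome 10, 40033532 to 40142258, minus strand), which belongs to the monocarboxylate family but carries aromatic amino acids and thyroid hormone, stood at 23.85, 22.40 and 18.55 TPM in Lyz2cre libraries and 20.45 TPM in CD11ccre, against 38.33, 32.51 and 45.39 TPM in WT. The log2 fold change was -0.81 ± 0.17 (SE, limma adjusted p = 0.0382). All 4 Siah-deleted libraries were below all WT libraries for Slc16a10. Slc6a4 (chromosome 11, 76998603 to 77032340, plus strand), the serotonin transporter, stood at 36.68, 32.07 and 29.15 TPM in Lyz2cre libraries and 37.69 TPM in CD11ccre, against 55.86, 49.00 and 58.87 TPM in WT. It was well expressed in all 7 libraries, and every WT library was above the others. The log2 fold change was -0.73 ± 0.14 (SE, limma adjusted p = 0.0288). Both calls ended without any 1 of the 6 libraries. For Slc16a10 the adjusted p was 0.0979, 0.0534 and 0.0752 without WT replicates 1 to 3 and 0.0795, 0.0943 and 0.126 without Lyz2cre replicates 1 to 3. For Slc6a4 it was 0.0849, 0.0535 and 0.0640 without WT replicates 1 to 3 and 0.0522, 0.0889 and 0.103 without Lyz2cre replicates 1 to 3.

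**Figure D2:**
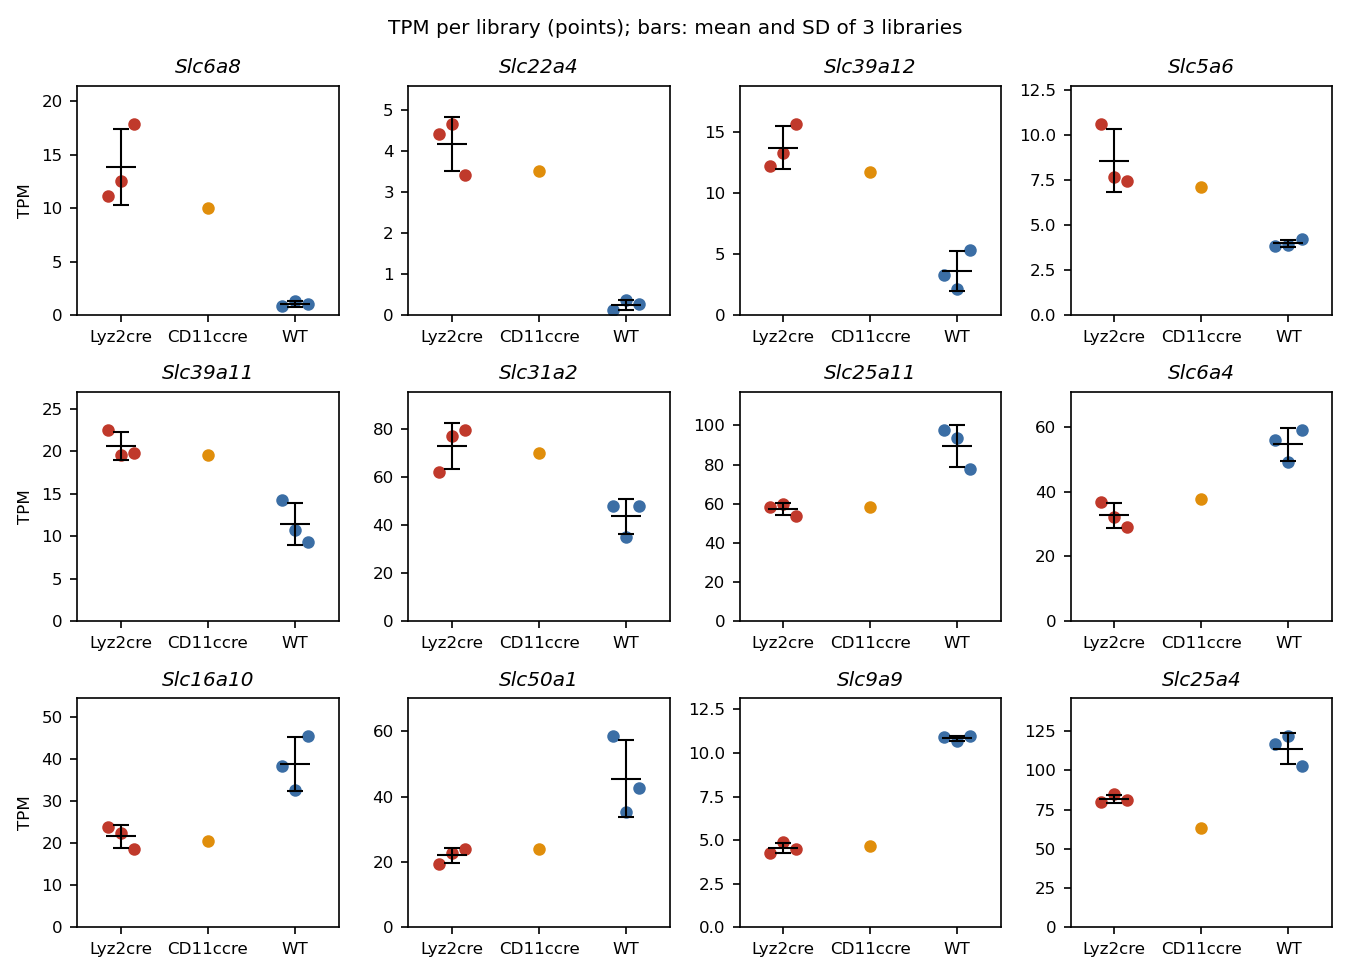
TPM of the 11 members called in Lyz2cre against WT, and of Slc25a4, in each library (points), with the mean and SD of the 3 Lyz2cre and the 3 WT libraries (bars). In each panel the Lyz2cre points lie on 1 side of the WT points, and CD11ccre lies on the same side.

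Of the 22 members classed by family number as amino acid and peptide carriers 1 rose, 1 fell and 20 were not called. The class median was 0.11, and the shares of all genes tested were 2.17% called higher and 4.60% lower. The called members of this class, Slc6a8 and Slc6a4, carry creatine and serotonin, while Slc16a10, which carries aromatic amino acids, belongs by its family to the carboxylate class. Slc7a2, a cationic amino acid transporter that supplies arginine, averaged 106 ± 7.74 TPM in Lyz2cre and 96.4 ± 20.2 TPM in WT (SD, n = 3 each; limma adjusted p = 0.626) and was 80.7 TPM in CD11ccre. Slc7a5, the light chain of a large neutral amino acid transporter, stood at 15.59, 17.42 and 16.40 TPM in Lyz2cre libraries and 12.09 TPM in CD11ccre, against 22.31, 22.34 and 26.00 TPM in WT. The groups did not overlap, but neither comparison passed (limma adjusted p = 0.0833 in Lyz2cre and 0.0598 in CD11ccre). A list of 12 genes for carriers of lysosomes and endosomes was searched by symbol, and a gene held under another symbol would be missed. The search found 9 in the table, all of them members. Of these 0 rose and 0 fell in Lyz2cre against WT (limma), beside 2.17% and 4.60% of all genes tested, and their median was 0.16. The list leaves out Slc31a2 and Slc9a9, which also act in those compartments and were called in opposite directions. It also leaves out the lysosomal Slc2a6, which was not called in Lyz2cre. For the 9 listed genes in the table, log2 fold changes ran from -0.11 for the sialic acid exporter Slc17a5 to 0.63 for Slc46a3. Slc46a3 stood at 11.23, 15.95 and 10.71 TPM in Lyz2cre libraries and 8.36 TPM in CD11ccre, against 8.05, 9.39 and 5.95 TPM in WT.

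Of the 32 Slc25 members, classed by family number as mitochondrial carriers, 0 rose, 1 fell and 31 were not called. Their median was -0.12. Among all genes tested 2.17% were called higher and 4.60% lower. The Lyz2cre libraries lay wholly below WT for 8 and wholly above for 2, beside 23.3% and 7.45% of all genes tested. The member that fell was Slc25a11 (chromosome 11, 70644196 to 70647479, minus strand), the carrier of 2-oxoglutarate and malate. It stood at 58.19, 59.71 and 53.89 TPM in Lyz2cre libraries and 58.62 TPM in CD11ccre, against 97.55, 93.77 and 77.56 TPM in WT. The groups did not overlap, and the WT mean was 1.57-fold that of Lyz2cre (log2 fold change -0.63 ± 0.13 SE, limma adjusted p = 0.0342). The call ended without WT replicate 1 (0.0955) or 2 (0.0971) and without Lyz2cre replicate 1 (0.0963), 2 (0.0863) or 3 (0.119). Slc25a11 overlaps Rnf167 on the other strand, as Slc39a11 overlaps Sstr2 and Cog1 and Slc5a6 overlaps Atraid, while noncoding genes lie opposite Slc6a4 and Slc16a10. On its own strand Slc31a2 overlaps a small nuclear RNA gene and Slc9a9 a microRNA gene. The strand setting of the quantification was not stated, so their reads could be shared. Slc25a20, the carnitine and acylcarnitine carrier, averaged 36.2 ± 2.92 TPM in Lyz2cre, was 34.9 TPM in CD11ccre and averaged 51.3 ± 6.44 TPM in WT (SD, n = 3 each for Lyz2cre and WT; limma adjusted p = 0.0874 in Lyz2cre).

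The adenine nucleotide carriers Slc25a4 and Slc25a5, which both exchange ADP for ATP, stood on opposite sides of WT. Slc25a4 (chromosome 8, 46206797 to 46211284, minus strand) was 80.03, 84.99 and 81.26 TPM in Lyz2cre libraries and 63.12 TPM in CD11ccre, against 117.00, 121.82 and 102.97 TPM in WT. Slc25a5 (chromosome X, 36795651 to 36798807, plus strand) was 498.62, 531.13 and 601.62 TPM in Lyz2cre libraries and 590.35 TPM in CD11ccre, against 494.60, 381.21 and 411.49 TPM in WT. All Siah-deleted libraries were below WT for Slc25a4 and above WT for Slc25a5, by a small margin in Lyz2cre replicate 1. Within a library, which cancels its scaling, the ratio of Slc25a5 to Slc25a4 was 6.23, 6.25 and 7.40 in Lyz2cre and 9.35 in CD11ccre, against 4.23, 3.13 and 4.0 in WT. This pair was chosen after its values were seen, so the ratio is given without a test. In limma, Slc25a4 fell in CD11ccre (log2 fold change -0.84, adjusted p = 0.0420) and missed the threshold in Lyz2cre (-0.46, adjusted p = 0.0527). In Lyz2cre it passed without WT replicate 3 (0.0467) and with a mean of at least 5 TPM (0.0454). With median-of-ratios scaling the Lyz2cre value was -0.28 (adjusted p = 0.213), and without Lyz2cre replicates 1 to 3 the adjusted p was 0.149, 0.115 and 0.156. The CD11ccre call did not hold under median-of-ratios scaling (0.179), nor without WT replicate 1 (0.0913) or 2 (0.0872) or Lyz2cre replicate 1 (0.0842), 2 (0.0764) or 3 (0.0764). Slc25a5 was not called in Lyz2cre (0.35, adjusted p = 0.159) or CD11ccre (0.47, adjusted p = 0.193). The phosphate carrier Slc25a3 was 426.13, 383.75 and 340.59 TPM in Lyz2cre libraries and 372.36 TPM in CD11ccre, against 492.78, 540.18 and 471.19 TPM in WT (limma adjusted p = 0.0925 in Lyz2cre), all Siah-deleted libraries lying below WT.

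**Figure D3:**
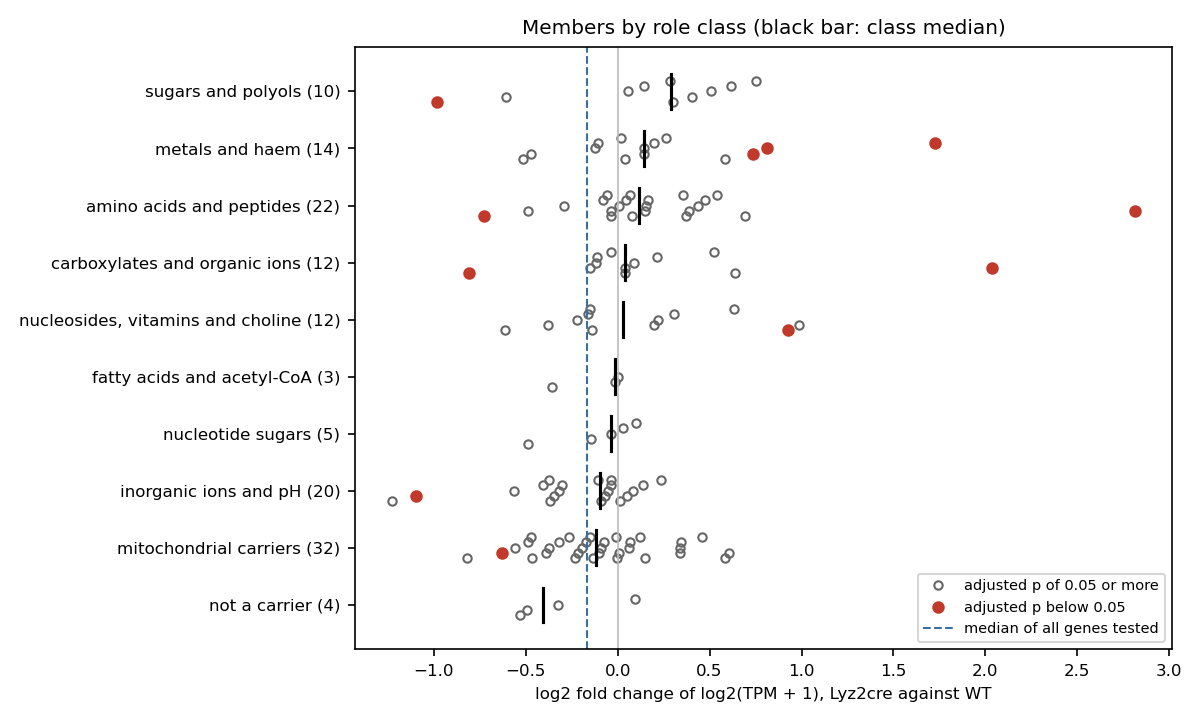
Log2 fold change of log2(TPM + 1) in Lyz2cre against WT for each of the 134 members, by role class with its number of members. Filled points are the 11 called members, black bars the class medians, and the dashed line the median of all genes tested at -0.16, below 9 of the 10 class medians.

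The remaining classes held few calls, as did all genes tested (2.17% higher and 4.60% lower). Of 12 carriers of carboxylates and organic ions 1 rose (Slc22a4) and 1 fell (Slc16a10), with a median of 0.04. In the 5 carriers of nucleotide sugars 0 rose and 0 fell (median -0.04), and likewise in the 3 carriers of fatty acids and acetyl-CoA (median -0.01) and the 4 genes that are not carriers (median -0.41). By limma's unadjusted p below 0.05, 37 of the 134 members differed in Lyz2cre, 17 higher and 20 lower, against 24.6% of all genes tested. Among listed transporters and subunits that carry other symbols, 0 of 20 tested rose and 1 fell, beside 2.17% and 4.60% of all genes tested. The gene that fell was Mpc2, a subunit of the mitochondrial pyruvate carrier, at 199.12, 217.09 and 175.54 TPM in Lyz2cre libraries and 167.49 TPM in CD11ccre, against 305.44, 275.83 and 308.87 TPM in WT. Its libraries did not overlap (log2 fold change -0.59 ± 0.12 SE, limma adjusted p = 0.0304), but the call ended without any 1 of the 6 libraries. Without WT replicates 1 to 3 the adjusted p of Mpc2 was 0.0870, 0.0636 and 0.0655, without Lyz2cre replicates 1 to 3 it was 0.0920, 0.0516 and 0.101, and with median-of-ratios scaling it was 0.0727. Of the 2 listed chaperones of monocarboxylate carriers, Emb, which partners Slc16a7, fell and Bsg did not pass. Emb stood at 14.50, 11.18 and 7.22 TPM in Lyz2cre libraries and 5.35 TPM in CD11ccre, against 38.12, 34.76 and 38.15 TPM in WT. All Siah-deleted libraries were far below WT (log2 fold change -1.71 ± 0.24 SE, limma adjusted p = 0.00950), and the Lyz2cre call held whichever of the 6 libraries was left out. Its client Slc16a7 averaged 9.47 ± 1.5 TPM in Lyz2cre, was 9.72 TPM in CD11ccre and averaged 9.89 ± 2.52 TPM in WT (SD, n = 3 each for Lyz2cre and WT; limma adjusted p = 0.943 in Lyz2cre).

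In CD11ccre against WT, where the lone library is assumed to vary like the others, 1 of 134 members rose (Slc6a8) and 1 fell (Slc25a4). That is 1.49% of the members, against 2.89% of all genes tested (0.895% higher and 1.99% lower), and the test shares its WT libraries with that of Lyz2cre. The CD11ccre library lay above all WT libraries for 17.2% of the members, against 13% of all genes tested, and below them for 49.3%, against 50.5%. The median log2 fold change was -0.26 over the members and -0.29 over all genes tested. The 10 other members called in Lyz2cre were not called in CD11ccre, with log2 fold changes there between -1.06 for Slc9a9 (adjusted p = 0.0618) and 1.85 for Slc22a4 (adjusted p = 0.0585). Slc2a6, a glucose transporter of lysosomes, was highest in the CD11ccre library, at 4.34, 4.41 and 3.98 TPM in Lyz2cre libraries and 7.84 TPM in CD11ccre, against 2.77, 2.58 and 2.72 TPM in WT. Its log2 fold change in CD11ccre was 1.26 (limma adjusted p = 0.0640, and 0.0433 with median-of-ratios scaling). With that scaling 3 members were higher and 0 lower, where 1.33% of all genes tested were called higher and 0.746% lower.

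Set directly against Lyz2cre, the CD11ccre library differed in 0 members in limma, where 0.114% of all genes tested were called (0.0439% higher and 0.0702% lower). The smallest adjusted p was 0.769, and 11 members had an unadjusted p below 0.05, 1 higher and 10 lower in CD11ccre, against 6.10% of all genes tested. For Slc6a8 the log2 difference of CD11ccre from Lyz2cre was -0.41 ± 0.34 (SE, limma adjusted p = 0.920), and for Slc22a4 it was -0.18 ± 0.40 (SE, limma adjusted p = 0.980). With 1 library on a side these errors are wide, and a missed threshold does not show that the lines were alike.

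**Figure D4:**
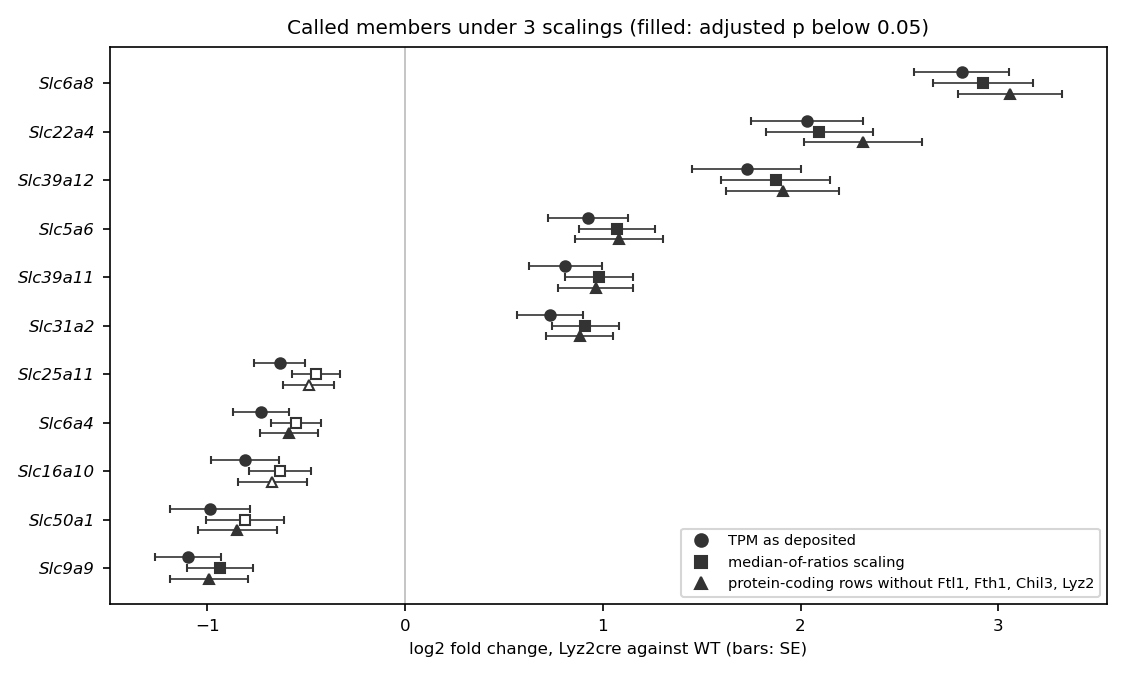
Log2 fold change in Lyz2cre against WT with its SE for the 11 called members under 3 scalings of the libraries, with filled symbols for adjusted p below 0.05. The 6 rises keep their calls in all 3, whereas with median-of-ratios scaling only Slc9a9 keeps its call among the 5 falls.

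The direction of all 11 called members was the same under the 3 scalings. With median-of-ratios scaling the adjusted p was 0.0870 for Slc25a11, 0.0585 for Slc6a4, 0.0719 for Slc16a10 and 0.0659 for Slc50a1, and 0.0241 for Slc9a9. With protein-coding rows only, less Ftl1, Fth1, Chil3 and Lyz2, Slc25a11 (0.0604) and Slc16a10 (0.0564) lost their calls. The exact two-sided permutation test of mean TPM gave p = 0.1 for each of the 11 members, the smallest that 3 against 3 libraries allow.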

How the data were processed

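RNA-seq libraries came from 7 sorted alveolar macrophage samples (Lyz2cre n = 3, CD11ccre n = 1, WT n = 3), grouped by their titles. The deposited table holds TPM by the authors, each library summing to 1000000, and the depth per library is unknown. Per the labels' protocols, poly(A) RNA was made into strand-specific libraries and read from one end. The tools listed in the submitters' processing notes are RSEM 1.3.1, STAR 2.7.0d and cutadapt 2.3, and the build is mm10. Neither annotation nor strand setting is given in the sources used here.

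Gene coordinates were matched by ID to GENCODE M21 (134 of 134 members). Overlapping genes on the same strand were present for 23 members and on the other strand for 54. The test was limma 3.58.1 in R 4.3.3 with a mean-variance trend on log2(TPM + 1). All 7 libraries were in 1 fit (4 residual and 3.35 prior degrees of freedom). The test was also run on simulated data, drawn independently per library and with changes put only into genes of higher level. That simulation cannot show how the test behaves for low genes. Role classes follow the family number. Members and lists were chosen with earlier results of these data known. Named were all members called in Lyz2cre, those called in CD11ccre, the most abundant, those beside the level limit, and others by role with values, which were chosen after their values were seen. The alternatives were 2 pseudocounts, 2 filters, 2 scalings, no trend, a replicate block, no CD11ccre library and each WT and Lyz2cre replicate left out. Same-numbered replicates did not deviate together (r = -0.01, 0.04 and 0.07), so the numbers were not treated as pairs.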

Additional observations from a re-analysis of the deposited data

How the results depend on the processing

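In Lyz2cre against WT the 6 members called higher became 2 without a filter on low values and 3 with the replicate block, and 1 to 4 when a replicate was left out. The 5 called lower became 1 without the filter, 1 with median-of-ratios scaling, 3 with protein-coding rows less Ftl1, Fth1, Chil3 and Lyz2, 1 without the trend and 0 with the replicate block, and 0 to 3 when a replicate was left out. In CD11ccre against WT the 1 called higher became 2 without the filter, 3 with median-of-ratios scaling, 3 with the protein-coding rows, 3 without the trend and 0 with the replicate block, and 0 to 1 when a replicate was left out. The 1 called lower became 3 without the filter and 2 with a mean of at least 5 TPM. It became 0 with median-of-ratios scaling, with the protein-coding rows, without the trend and with the replicate block, and 0 to 1 when a replicate was left out. CD11ccre against Lyz2cre gave 0 calls in each setting. No called member changed sign. Over all genes tested in Lyz2cre against WT, calls fell to 239 without Lyz2cre replicate 3, to 390 with the block and to 342 without the filter, against 771. They rose to 833 without the CD11ccre library and to 861 with a mean of at least 5 TPM. A fit without a WT or Lyz2cre replicate, or with the block, has fewer residual degrees of freedom than the main fit. Whether this or anything else caused the changes was not tested. With the replicate block the adjusted p of Slc6a8 in Lyz2cre was 0.0143 and that of Slc9a9 0.0529. Since TPM keeps no depth, the precision of low members such as Slc22a4 in WT is unknown.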
